A study of Mus musculus with 31 samples.

Results

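The genes described here are Git2 and its close relative Git1, together with the exchange factors Arhgef6 and Arhgef7, the kinases Pak1 and Pak2, the adaptor Pxn and the GTPase Rac1. All array probes annotated with 1 of these 8 symbols were taken, with no use of their values, which gave 12 probes for 6 of the 8 genes, out of 25697 probes and 16593 named genes on the array. No probe is named for Pak1 or Pak2 in the annotation used here, so these genes have no value below. Of the 12 probes, 10 were detected in at least 3 of the 27 samples and were tested among 15053 such probes. The other 2, which are the single Arhgef7 probe and 1 of 3 Pxn probes, were detected in 0 of 27 samples and stayed between 4.54 and 4.68 for Arhgef7 and between 4.56 and 4.77 for Pxn on the log2 scale.

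RNA came from male mice 12 months old, in 9 groups of 3 samples, measured on Illumina MouseRef-8 bead arrays. Homozygous GIT2KO mice, a gene-trap line on a C57BL/6 background, gave parathymic lobes (PTL, which the sample labels call extra lymph nodes), thymus, inguinal lymph nodes (ILN), mesenteric lymph nodes (MLN) and spleen. C57BL/6 wild type (WT) mice gave the same tissues except PTL, which were described in GIT2KO mice only. The trap is carried in every cell of the animal, and its place in the gene relative to the probes is not given in the sources used here. The 27 samples come from 7 animals, since 3 GIT2KO and 3 WT mice each gave 4 tissues and 1 of the 3 PTL samples came from a further GIT2KO mouse.

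GIT proteins are GTPase-activating proteins for the small GTPases of the ARF family and serve as scaffolds. They bind PIX proteins, the products of Arhgef6 (alpha-PIX) and Arhgef7 (beta-PIX), which load Rac1 and Cdc42 with GTP. PAK kinases, which are switched on by Rac1 and Cdc42, bind PIX, and GIT proteins also bind paxillin, the focal adhesion adaptor encoded by Pxn. The complex is known for its part in cell spreading and migration, including the movement of lymphocytes and thymocytes.

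The promoters of Git2 and Git1 are shown because both genes encode a GIT scaffold and only Git2 was trapped. Each window holds 250 bases before and 50 bases after the first start that RefSeq lists on GRCm38.p6, and capitals mark each GC box, GGGCGG or its complement CCGCCC.
Git2, chr5:114773443-114773742, minus strand: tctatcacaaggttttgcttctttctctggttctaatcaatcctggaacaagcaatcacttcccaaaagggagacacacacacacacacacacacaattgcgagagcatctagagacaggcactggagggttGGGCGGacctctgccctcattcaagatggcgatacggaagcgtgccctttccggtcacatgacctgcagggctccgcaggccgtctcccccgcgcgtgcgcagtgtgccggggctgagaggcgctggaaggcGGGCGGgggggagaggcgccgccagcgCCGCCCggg
Git1, chr11:77493038-77493337, plus strand: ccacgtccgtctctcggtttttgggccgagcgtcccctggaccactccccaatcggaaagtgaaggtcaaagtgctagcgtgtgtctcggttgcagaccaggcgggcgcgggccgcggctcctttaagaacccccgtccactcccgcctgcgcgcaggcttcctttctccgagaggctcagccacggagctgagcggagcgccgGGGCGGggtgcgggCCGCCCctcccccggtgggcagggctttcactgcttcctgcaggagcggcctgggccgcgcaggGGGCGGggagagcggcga
Each window holds 3 GC boxes. G and C make up 61.3% of the Git2 window and 70.7% of the Git1 window, where the median over 32851 windows of the same length is 52.7%. At least 1 GC box is found in 35.7% of all these windows, and a match describes letters and not binding. The annotation places Git2, Pxn and Rac1 on chromosome 5, Git1 on chromosome 11, Arhgef6 on chromosome X and Arhgef7 on chromosome 8.

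Signal averaged 209–591 over the probes of an array, with 45.9–52.8% of probes detected, and both arrays of WT spleen replicate 3 were the dimmest. Values below are log2 signals after background correction and quantile normalization of all arrays, with repeat arrays of 4 samples averaged, and a difference is a log2 difference. A probe passed when its adjusted p in limma (Benjamini-Hochberg over all tested probes of that comparison) was below 0.05. Tissue labels were checked on Rag1, the recombinase of immature thymocytes, which read 5.20–5.99 in PTL, against 11.996–12.18 in GIT2KO thymus and 12.07–12.19 in WT thymus. Glycam1, an adhesion ligand of node venules, read 11.64–12.52 in PTL, against 11.31–11.66 in GIT2KO ILN and 4.61–5.47 in GIT2KO thymus.

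Git2 was lower in every GIT2KO tissue on all 3 of its probes, and the loss was deepest in the thymus. The probes are called Git2-a (ILMN_2728477), Git2-b (ILMN_1251129) and Git2-c (ILMN_3136809), of which the annotation assigns a and b to 1 Git2 transcript record and c to another. In thymus, Git2-b read 5.52, 5.84 and 5.51 in GIT2KO, against 9.12, 9.13 and 9.05 in WT. Git2-c read 5.32, 5.36 and 5.55 in GIT2KO, against 8.92, 9.32 and 8.93 in WT. Git2-a read 6.62, 6.16 and 6.67 in GIT2KO, against 8.51, 8.41 and 8.41 in WT. On each probe the highest GIT2KO thymus stood well below the lowest WT thymus. Git2-b was lower by 11.1-fold (95% interval 8.7 to 14.3), with a difference of −3.48 (SE 0.17, adjusted p = 3.57e-13 in limma). Git2-c was lower by 12.5-fold (95% interval 8.83 to 17.7), adjusted p = 1.49e-10. Git2-a was lower by 3.89-fold (95% interval 2.71 to 5.59), adjusted p = 1.51e-05. These folds depend on the background step, and without background correction the differences were −2.41 for Git2-b, −2.46 for Git2-c and −1.40 for Git2-a, each still passing. Of the 10 tested probes of these genes, 4 passed in thymus, 3 of them Git2 probes, where 17.4% of all tested probes passed.

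In ILN, Git2-b read 6.32, 6.17 and 6.56 in GIT2KO, against 8.31, 8.12 and 8.61 in WT. Git2-c read 6.24, 6.07 and 6.37 in GIT2KO, against 8.25, 8.13 and 8.53 in WT. Git2-a read 7.17, 6.87 and 7.16 in GIT2KO, against 8.21, 8.03 and 8.20 in WT. No GIT2KO node reached a WT node on any of the probes. Differences were −1.998 for Git2-b (SE 0.17, adjusted p = 3.52e-08), −2.08 for Git2-c (SE 0.24, adjusted p = 5.28e-06) and −1.08 for Git2-a (SE 0.25, adjusted p = 0.0181). These were the 3 of the 10 probes that passed in ILN, where 2.55% of all tested probes passed. The call on Git2-a in ILN was lost without GIT2KO replicate 2 (adjusted p = 0.0912), without WT replicate 1 (0.0799) and without WT replicate 3 (0.0806), with differences of −1.13 to −0.98 over all samples left out in turn. Without background correction Git2-b differed by −1.40 and Git2-c by −1.43 in ILN, and both passed.

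In MLN, Git2-b read 6.11, 6.11 and 6.24 in GIT2KO, against 8.23, 8.16 and 8.50 in WT. Git2-c read 5.92, 5.37 and 6.07 in GIT2KO, against 8.12, 7.90 and 8.27 in WT. Git2-a read 6.82, 6.49 and 6.94 in GIT2KO, against 8.68, 8.44 and 8.01 in WT. GIT2KO and WT nodes did not overlap on any of the probes. Differences were −2.14 for Git2-b (SE 0.17, adjusted p = 1.09e-08), −2.31 for Git2-c (SE 0.24, adjusted p = 9.41e-07) and −1.63 for Git2-a (SE 0.25, adjusted p = 3.08e-04). Without background correction the differences in MLN were −1.46 for Git2-b, −1.47 for Git2-c and −1.19 for Git2-a, each passing. In MLN 4 of the 10 probes passed, 3 of them Git2 probes, where 2.20% of all tested probes passed.

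In spleen, Git2-b read 6.40, 6.14 and 5.80 in GIT2KO, against 8.14, 8.27 and 8.22 in WT. Git2-c read 6.64, 6.22 and 5.89 in GIT2KO, against 8.78, 8.31 and 8.49 in WT. Git2-a read 5.69, 5.82 and 6.68 in GIT2KO, against 6.88, 7.23 and 6.29 in WT. Git2-b and Git2-c kept GIT2KO and WT spleens apart, whereas on Git2-a GIT2KO replicate 3 lay above WT replicate 3. Differences were −2.10 for Git2-b (SE 0.17, adjusted p = 1.3e-08), −2.27 for Git2-c (SE 0.24, adjusted p = 7.43e-07) and −0.74 for Git2-a (SE 0.25, adjusted p = 0.034). In spleen 5 of the 10 probes passed, 3 of them Git2 probes, where 25.2% of all tested probes passed. The Git2-a call in spleen was lost without GIT2KO replicate 1 (adjusted p = 0.159), GIT2KO replicate 2 (0.143), WT replicate 1 (0.0856) or WT replicate 2 (0.147), with differences of −1.05 to −0.53. It was also lost without background correction (difference −0.42, adjusted p = 0.0605), with the deposited z values (0.322), with only the spleens fitted (0.189), with the repeat arrays (0.0838) and by the methods' t-test. Git2-b and Git2-c passed in spleen without background correction, at −1.41 and −1.60.

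**Figure D1:**
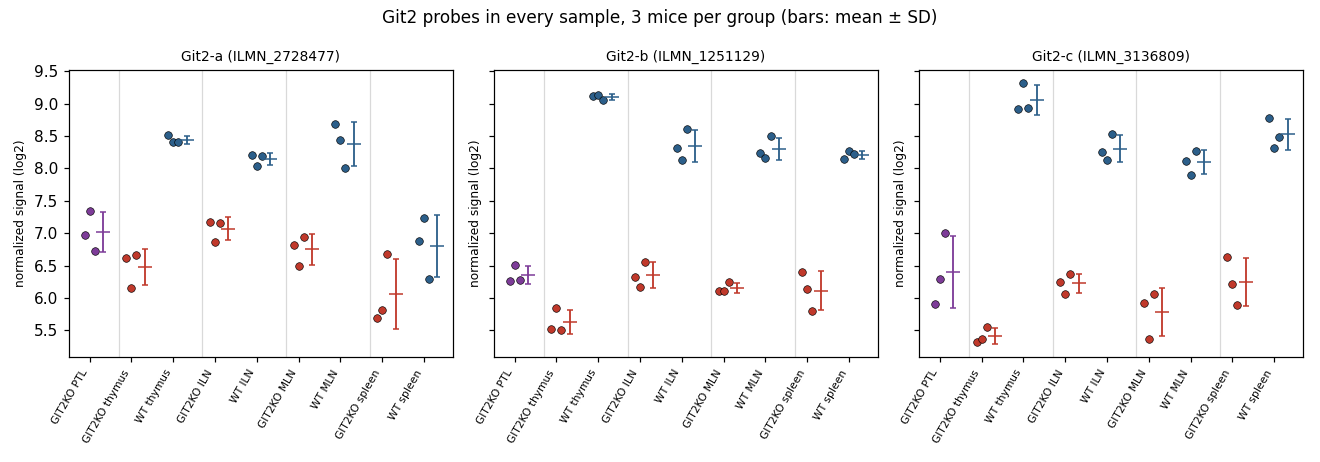
Normalized signal (log2, vertical axis) of the 3 Git2 probes in each of the 27 samples, by group along the horizontal axis, with points for single mice and bars for the mean ± SD of 3. GIT2KO samples lie below the WT samples of the same tissue on all probes, except in spleen on Git2-a, where the groups overlap.

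Averaged over the 4 tissues of each animal, 3 GIT2KO mice against 3 WT mice, the difference was −2.43 for Git2-b (SE 0.11, adjusted p = 5.45e-07), −2.58 for Git2-c (SE 0.12, adjusted p = 6.43e-07) and −1.35 for Git2-a (SE 0.15, adjusted p = 5.14e-04). Without background correction these were −1.67, −1.74 and −0.95 for the same probes, and all passed. In these animal means 3167 of the 15053 tested probes passed in either direction, and 9.79% of all tested probes passed and were lower in GIT2KO. Of the 10 probes 4 passed, all lower in GIT2KO. With the mean of 8 adipocyte markers as a covariate none of these 4 passed, and Git2-b stood at −2.31 (adjusted p = 0.117) in a fit where the mean of the markers was 7.68–8.14 in the GIT2KO animals and 6.50–6.97 in the WT animals, without overlap. In that fit only 6 of all 15053 tested probes passed. Of all tested probes, 88 or 0.585% passed in each of the 4 tissues, and the 3 Git2 probes are among them. The size of the Git2 difference depended on the tissue for Git2-b (adjusted p = 0.00109, limma F test over the 4 tissue contrasts) and Git2-c (adjusted p = 0.0151), and did not pass for Git2-a (adjusted p = 0.0821, and 0.0285 without WT spleen replicate 2 and 0.0263 without background correction), where 8.23% of all tested probes passed. The difference on Git2-b ran from −3.48 in thymus to −1.998 in ILN. Both GIT2KO thymus means and WT thymus means stood at the ends of the order of group means, since WT thymus had the highest mean of all 9 groups on each probe and GIT2KO thymus the lowest on Git2-b and Git2-c.

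Git2 probes kept a signal above the detection threshold in most GIT2KO samples. Detection p stayed below 0.05 in 15 of 15 GIT2KO samples for Git2-a and Git2-b and in 13 of 15 for Git2-c, with 1 GIT2KO thymus and 1 GIT2KO MLN not detected. Before normalization, Git2-b signals were 107, 121 and 102 in GIT2KO thymus, against 612, 516 and 563 in WT thymus. Detection p of Git2-b in these GIT2KO thymi was 0.029, 0.018 and 0.040, close to the threshold of 0.05. Whether the remaining signal comes from Git2 RNA was not tested.

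Git1, the other GIT scaffold, did not pass in any of the GIT2KO against WT comparisons. Its probes are Git1-a (ILMN_2940541) and Git1-b (ILMN_2534253). In thymus, Git1-a read 6.52, 6.47 and 5.84 in GIT2KO, against 6.42, 6.94 and 6.996 in WT. In ILN it read 6.35, 6.46 and 6.46 in GIT2KO, against 6.89, 6.51 and 6.84 in WT. In MLN it read 6.56, 6.47 and 6.34 in GIT2KO, against 6.99, 6.59 and 7.003 in WT. GIT2KO and WT overlapped in thymus and stood apart in both nodes, with the GIT2KO nodes lower. How many of all tested probes separate 3 samples from 3 in this way was not counted, so no result is read from it. In spleen, Git1-a read 6.26, 6.48 and 6.06 in GIT2KO, against 6.22, 6.38 and 6.28 in WT, and the groups overlapped. Its differences were −0.51 in thymus (95% interval −0.94 to −0.07, adjusted p = 0.0985), −0.32 in ILN (−0.76 to 0.11, adjusted p = 0.567), −0.41 in MLN (−0.84 to 0.03, adjusted p = 0.423) and −0.03 in spleen (−0.46 to 0.41, adjusted p = 0.944). Over the 4 tissues of each animal Git1-a differed by −0.32 (95% interval −0.59 to −0.04, adjusted p = 0.0928), with all 3 GIT2KO mice below all 3 WT mice. Without WT thymus replicate 1, the thymus difference of Git1-a passed (adjusted p = 0.0402). Git1-b, detected in 22 of 27 samples, had differences of 0.06 in thymus (95% interval −0.47 to 0.60), −0.25 in ILN (−0.79 to 0.28), −0.22 in MLN (−0.75 to 0.32) and 0.20 in spleen (−0.33 to 0.73), with adjusted p of 0.622 to 0.91. No interval of a Git1 probe reached a rise of 1 log2 unit of normalized signal in any tissue. Both probes are dim, and the size of a difference depends on the background step, so this does not bound the change in Git1 RNA.

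Arhgef6, which encodes alpha-PIX, has 2 tested probes, which did not pass together in any of the 4 tissues. Arhgef6-a, its bright probe, fell in thymus and spleen, and Arhgef6-b, its dim probe, rose in MLN. Of all tested probes, 8.62% passed in at least 2 tissues. Arhgef6-a (ILMN_2639642) read 10.66, 10.59 and 10.79 in GIT2KO, against 10.995, 10.98 and 11.11 in WT thymus. In spleen it read 10.41, 10.50 and 10.54 in GIT2KO, against 10.92, 10.77 and 10.59 in WT. In both tissues the GIT2KO samples lay below the WT samples without overlap. It fell by 0.35 in thymus (SE 0.09, adjusted p = 0.013) and by 0.27 in spleen (SE 0.09, adjusted p = 0.0329). In ILN it read 10.96, 10.89 and 10.98 in GIT2KO, against 11.22, 11.21 and 11.13 in WT, and the difference of −0.24 did not pass (adjusted p = 0.216). In MLN it read 10.69, 10.65 and 10.62 in GIT2KO, against 10.74, 10.60 and 10.66 in WT, with a difference of −0.01 (95% interval −0.20 to 0.18). Over the 4 tissues of each animal it fell by 0.22 (SE 0.07, adjusted p = 0.0407). Whether the difference on Arhgef6-a depends on the tissue did not pass (adjusted p = 0.26).

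Each of these calls on Arhgef6-a was lost under several alternatives. In thymus the call was lost without GIT2KO replicate 2 (adjusted p = 0.07) and without WT replicate 3 (0.0677), and by the methods' t-test. In spleen it was lost without GIT2KO replicate 1 (0.112), GIT2KO replicate 2 (0.0738), WT replicate 1 (0.154) or WT replicate 2 (0.0525), with only the spleens fitted (0.219), with the adipocyte covariate (0.0535) and by the methods' t-test. In the animal means of Arhgef6-a, leaving out WT animal 2 kept the call (0.0432), and leaving out any other of the 6 animals lost it (up to 0.135). It was lost there too with the replicate number as a block (0.0604), with no filter on dim probes (0.0651) and with the adipocyte covariate (0.716). Differences with a sample left out were −0.40 to −0.30 in thymus, −0.36 to −0.19 in spleen and −0.24 to −0.19 in the animal means. In thymus, 7 of 8 tested adipocyte markers rose in the same samples, with a mean log2 level of 8.81–10.40 in GIT2KO and 5.54–8.17 in WT, and each of the 8 was detected in both groups. Of 3 erythroid markers, 2 rose there too, at 7.53–11.12 in GIT2KO and 6.51–8.76 in WT, and their part was not tested. With that adipocyte mean as a covariate the thymus difference on Arhgef6-a was −0.32 (adjusted p = 0.183), whereas Git2-b stayed at −3.44 (adjusted p = 1.06e-09). In that fit 2.82% of all tested probes passed in thymus, in place of 17.4%.

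Arhgef6-b (ILMN_2751345) is a dim probe, detected in 20 of 27 samples. In MLN it read 6.18, 6.15 and 6.39 in GIT2KO, against 5.56, 5.23 and 5.04 in WT, without overlap, and rose by 0.97 (SE 0.21, adjusted p = 0.00861). It was detected in 3 of 3 GIT2KO MLN and in 1 of 3 WT MLN. In thymus it read 5.45, 5.36 and 6.07 in GIT2KO, against 5.98, 6.22 and 6.27 in WT, in the opposite direction, and the difference of −0.53 did not pass (adjusted p = 0.0773, and 0.0214 without GIT2KO thymus replicate 3). The remaining differences of Arhgef6-b were 0.27 in ILN (adjusted p = 0.647) and −0.27 in spleen (adjusted p = 0.367), where 0 of 3 GIT2KO and 1 of 3 WT spleens detected it. Its genotype difference depended on the tissue (adjusted p = 0.00889, limma F test). Without GIT2KO MLN replicate 3 the MLN call of Arhgef6-b was lost (adjusted p = 0.0635), as it was with only the MLN samples fitted (0.0791), and without background correction its MLN difference was 0.46 (adjusted p = 0.0142). The interval of Arhgef6-a in MLN, given above, did not reach a rise of that size, and Arhgef7, the other PIX gene, was not detected on this array.

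Rac1, the GTPase that PIX proteins load and that activates PAK, rose in spleen. It read 8.91, 9.06 and 9.10 in GIT2KO, against 8.60, 8.21 and 7.88 in WT spleen, with every GIT2KO spleen above every WT spleen. The difference was 0.80 (SE 0.18, adjusted p = 0.00253). Without the dim WT spleen replicate 3 it was 0.62 (adjusted p = 0.026), and it passed with each of the other spleens left out in turn. In a fit of the 6 spleens alone it did not pass (adjusted p = 0.0512). In thymus, Rac1 read 8.86, 8.94 and 8.67 in GIT2KO, against 8.46, 8.79 and 8.41 in WT. Its differences were 0.27 in thymus (95% interval −0.10 to 0.64, adjusted p = 0.33), 0.02 in ILN (−0.35 to 0.39, adjusted p = 0.985) and −0.03 in MLN (−0.40 to 0.34, adjusted p = 0.975), and the groups overlapped in each of these tissues. The mean over tissues gave 0.26 (adjusted p = 0.0749) and the test of tissue dependence gave adjusted p = 0.0933, so neither passed, although the first did without WT animal 2 (0.0323) and the second without WT spleen replicate 1 (0.0356).

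Marker lists of other cell types moved in the spleens that carry the Rac1 and Arhgef6-a changes. Of 7 mature T cell markers, 6 fell in spleen, with a mean log2 level of 8.50–8.96 in GIT2KO and 9.53–10.02 in WT, and all 7 were detected in both groups. Of 5 myeloid markers, 2 rose, with mean levels of 10.81–11.14 in GIT2KO and 9.15–10.51 in WT, and 1 of the 5 was undetected in each group. Of 8 double-positive thymocyte markers, 3 fell, with mean levels of 6.32–6.40 in GIT2KO and 6.81–6.97 in WT, and 3 of the 8 were undetected in each group. That list holds Cd4 and Cd8b1, which mature T cells also carry. In spleen 25.2% of all tested probes passed. The part of these marker lists in the Rac1 and Arhgef6 values was not tested. In such whole-tissue RNA, fewer cells of a type and less RNA per cell cannot be told apart.

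Pxn, the paxillin gene, did not pass in any of the GIT2KO against WT comparisons. Pxn-a (ILMN_3123303), its bright probe, read 7.97, 8.03 and 8.19 in GIT2KO, against 8.02, 8.43 and 8.18 in WT thymus. In ILN it read 7.82, 8.03 and 7.88 in GIT2KO, against 8.05, 8.28 and 8.13 in WT. In spleen it read 7.77, 8.38 and 8.01 in GIT2KO, against 7.73, 8.27 and 7.51 in WT. The groups overlapped in thymus, MLN and spleen, and in ILN the highest GIT2KO node lay just below the lowest WT node. Its differences were −0.15 in thymus (95% interval −0.55 to 0.26), −0.24 in ILN (−0.64 to 0.17), −0.01 in MLN (−0.42 to 0.39) and 0.22 in spleen (−0.19 to 0.62), with adjusted p of 0.454 to 0.989. Pxn-b (ILMN_1225102) was detected in 7 of 27 samples only. In MLN it read 5.20, 5.10 and 5.72 in GIT2KO, against 5.73, 6.05 and 6.10 in WT, without overlap, and was detected in 1 of 3 GIT2KO and 3 of 3 WT nodes, but the difference of −0.62 (95% interval −1.05 to −0.19) did not pass (adjusted p = 0.143).

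**Figure D2:**
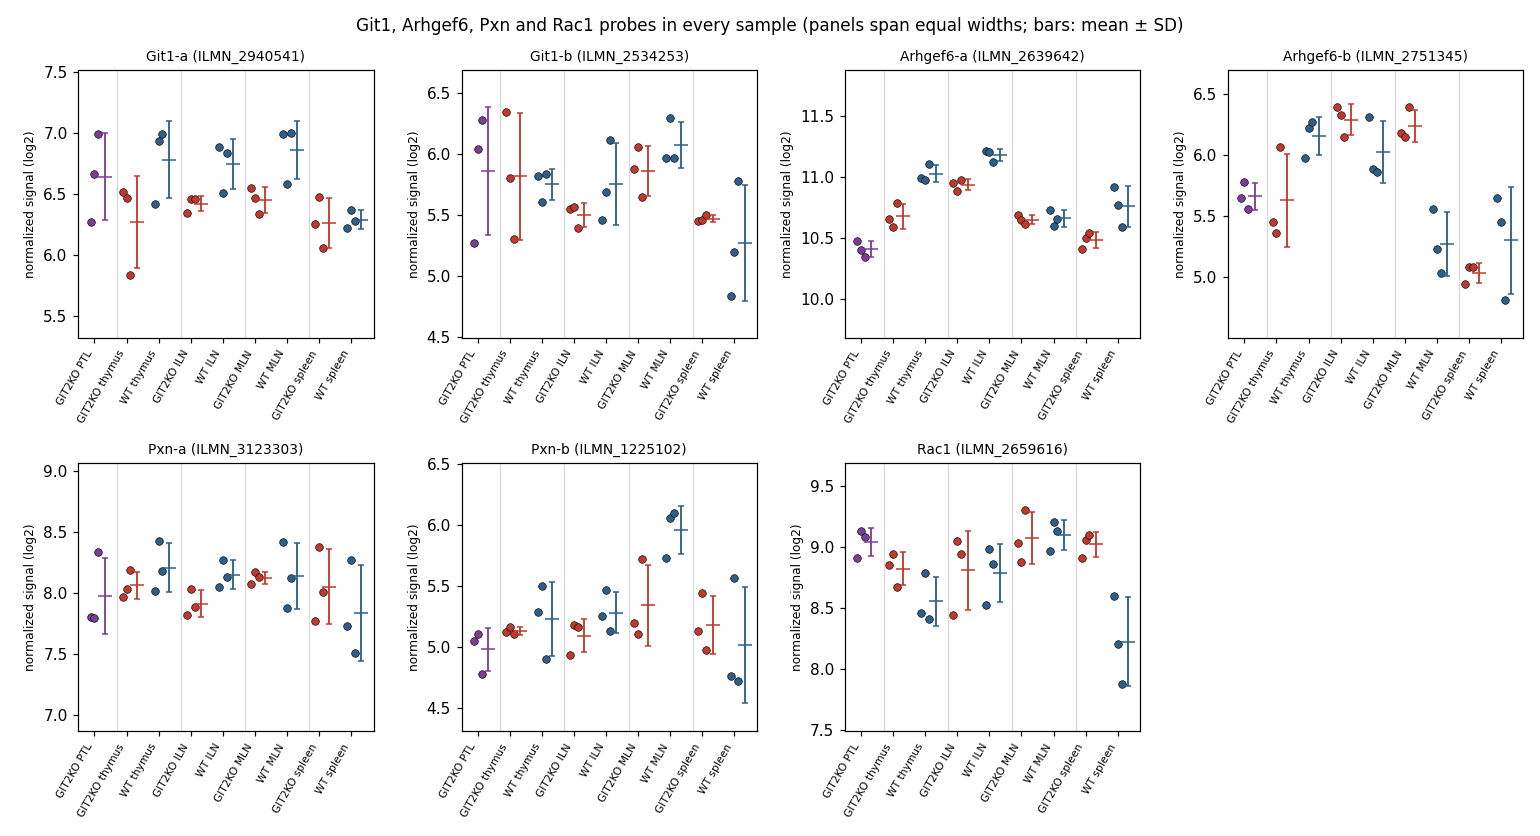
Normalized signal (log2, vertical axes, each with the same log2 span) of the 7 tested Git1, Arhgef6, Pxn and Rac1 probes in each of the 27 samples by group, with points for single mice and bars for the mean ± SD of 3. Rac1 stands apart in spleen, Arhgef6-a in thymus, ILN and spleen, and Arhgef6-b in MLN, where GIT2KO is the higher group. Git1-a in ILN and MLN, Pxn-a in ILN and Pxn-b in MLN also have no overlap between GIT2KO and WT. None of these differences passed, nor did that of Arhgef6-a in ILN. The share of all tested probes without such overlap was not counted.

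Counted over the 7 partner probes, 1 passed in thymus, 0 in ILN, 1 in MLN and 2 in spleen, against the shares of all probes given above. At an unadjusted p below 0.05 in limma the counts were 3, 1, 2 and 2. Their median difference was −0.15 in thymus, −0.24 in ILN, −0.03 in MLN and 0.16 in spleen, beside medians over all tested probes of −0.02, 0.01, 0.00 and −0.00. Passing or not, 5 of the 7 were lower in GIT2KO thymus, 5 in ILN, 6 in MLN and 3 in spleen, where Arhgef6-a fell and Rac1 rose.

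**Figure D3:**
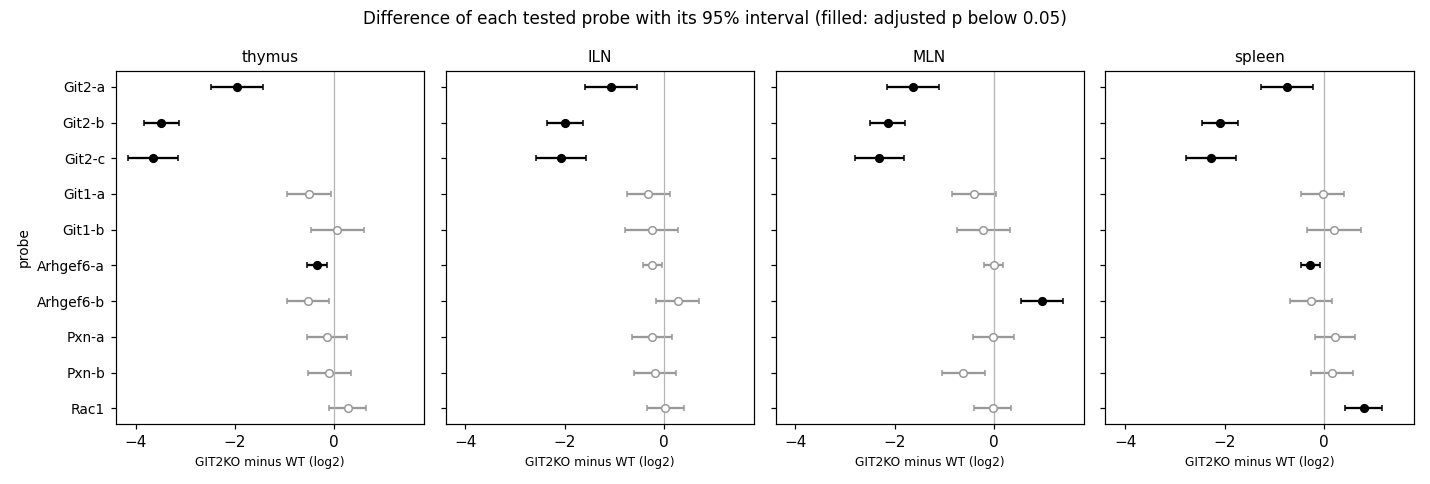
GIT2KO minus WT difference (log2, horizontal axis) of each of the 10 tested probes in thymus, ILN, MLN and spleen, with 95% intervals, filled where adjusted p was below 0.05. The 3 Git2 probes are filled in each tissue, and 4 points of partner probes are, namely Arhgef6-a in thymus and spleen, Arhgef6-b in MLN and Rac1 in spleen.

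PTL, which lack a WT counterpart, were set against GIT2KO thymus and against the mean of GIT2KO ILN and MLN, so both comparisons share the PTL samples. Git2-b read 6.27, 6.51 and 6.27 in PTL, against 5.52, 5.84 and 5.51 in GIT2KO thymus. Git2-c read 5.91, 6.29 and 6.997 in PTL, against 5.32, 5.36 and 5.55 in GIT2KO thymus. Both stood without overlap above GIT2KO thymus, with differences of 0.73 (SE 0.17, adjusted p = 0.00152) and 0.99 (SE 0.24, adjusted p = 0.00202). Git2-a did not pass (difference 0.53, adjusted p = 0.0981). The GIT2KO thymus values lay near the detection threshold, with detection p of 0.029, 0.018 and 0.040 for Git2-b and 0.0501, 0.0489 and 0.0326 for Git2-c. Before normalization Git2-b signals overlapped, at 143, 121 and 88 in PTL and 107, 121 and 102 in GIT2KO thymus. Arhgef6-a had its lowest mean of all 9 groups in PTL, at 10.48, 10.41 and 10.35, and GIT2KO spleen overlapped it at 10.41, 10.50 and 10.54. In PTL it was lower by 0.27 than in GIT2KO thymus (SE 0.09, adjusted p = 0.0228) and by 0.39 than in the GIT2KO nodes (SE 0.08, adjusted p = 0.0059). The Arhgef6-a call against thymus was lost without PTL replicate 2 (adjusted p = 0.0517), without PTL replicate 3 (0.079) and without GIT2KO thymus replicate 3 (0.112), with the deposited z values (0.0662), with only the groups compared (0.106) and by the methods' t-test, while that against the nodes was kept with each sample left out. Against GIT2KO thymus 3 of the 10 probes passed, where 40.8% of all tested probes passed, and against the nodes 1 of 10, where 4.74% passed. Arhgef6-b in PTL read 5.65, 5.78 and 5.56, with a difference of −0.60 from the nodes (adjusted p = 0.0511), which passed with the deposited z values (0.0211), only the groups compared (0.0386), animal as a random block (0.0495) and the repeat arrays (0.0308). Git2 did not pass between PTL and the GIT2KO nodes, with a difference of 0.10 for Git2-b (95% interval −0.21 to 0.41). It was 0.39 for Git2-c (−0.04 to 0.83) and 0.11 for Git2-a (−0.35 to 0.56). B cell markers, 7 of 7, rose in PTL against GIT2KO thymus, with mean levels of 9.78–10.44 in PTL and 6.34–7.43 in GIT2KO thymus, and 7 of 8 double-positive thymocyte markers fell (6.56–6.68 in PTL and 9.85–10.05 in GIT2KO thymus). Endothelial and node stroma markers rose there too, 6 of 6, at 9.96–10.21 in PTL and 6.68–6.89 in GIT2KO thymus. The part of these lists in the Git2 and Arhgef6-a values was not tested. Against the nodes, 4 of 8 adipocyte markers rose in PTL, with mean levels of 8.74–10.82 in PTL, 6.67–8.12 in GIT2KO ILN and 7.83–7.998 in GIT2KO MLN. Of 3 erythroid markers, 2 rose against the nodes, with mean levels of 7.72–9.13 in PTL, 6.39–6.88 in GIT2KO ILN and 6.20–6.60 in GIT2KO MLN, where 2 of the 3 were undetected in both nodes. Their part in the Arhgef6-a value was not tested. With the adipocyte markers as a covariate the Arhgef6-a difference from the nodes was −0.36 (adjusted p = 0.085), where 1.90% of all tested probes passed.

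With Git2 intact, levels differed between the 4 WT tissues for 7 of the 10 probes, where 62.8% of all tested probes passed. Git2-b and Git2-c were highest in WT thymus, clear of each other WT tissue, and WT ILN, MLN and spleen followed with overlapping ranges. Git2-a was at 8.51, 8.41 and 8.41 in WT thymus and at 6.88, 7.23 and 6.29 in WT spleen, and WT MLN overlapped the thymus range while WT ILN lay just below it. Spleen, low on Git2-a, was not low on Git2-c, where it read 8.78, 8.31 and 8.49 and stood second in the order. Arhgef6-a was highest in WT ILN (11.22, 11.21 and 11.13), then WT thymus, clear of WT spleen and WT MLN, which overlapped. Rac1 was highest in WT MLN (8.97, 9.21 and 9.13), with each neighbour in the order of tissues overlapping down to WT spleen. The Git1 probes (adjusted p = 0.0781 and 0.0589) and Pxn-a (adjusted p = 0.298) did not pass. Leaving out 1 sample brought Git1-a to 0.0377 (without WT thymus replicate 1) or 0.0431 (without WT MLN replicate 2), Git1-b to 0.0139 (without WT spleen replicate 3) and Pxn-a to 0.0479 (without WT spleen replicate 2). Pxn-b passed (adjusted p = 0.00228), and was detected in all 3 samples of WT MLN only.

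Over the 12 WT samples, Git2-b and Git2-c correlated at r = 0.80, Git2-a and Git2-b at 0.46, and Git2-a and Git2-c at −0.00. The 2 Arhgef6 probes correlated at 0.89 in these samples, and at 0.60 over all 27. Genes whose leading probe followed Git2-a most closely over the 12 WT samples were Exosc10, Snx6, Clk2, Btbd9 and Tmem242, with r of 0.96–0.97. Those closest to Git1-a over all 27 samples were Xdh, Tmem259, Dvl1, Itga5 and Pmm2, with r of 0.72–0.78. These values describe the samples, which share animals, arrays and 4 or 5 tissues.

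Pxn is the 17th gene from Git2 on chromosome 5 and Rac1 the 267th, counting genes with a tested probe in the order of the RefSeq annotation. Among the 25 such genes on each side of Git2, 13 of 50 passed in thymus, 1 in ILN, 0 in MLN and 12 in spleen, beside the shares of all probes given above. In MLN 6 of the 50 had an unadjusted p below 0.05 in limma. Set beside Git2-a, the lowest difference of the region was that of Git2 itself in thymus and MLN. In ILN it was that of Sgsm1, and in spleen that of Oasl2, 2 genes from Git2. Git2-b and Git2-c, with −1.998 and −2.08 in ILN and −2.10 and −2.27 in spleen, lay below these neighbours in both tissues. Sgsm1, the single neighbour that passed in ILN, was not well above background in any GIT2KO ILN and was named after its value was seen. Genes of the region passing in at least 2 tissues numbered 5 of 50, where 8.62% of all tested probes did. Oasl2, an interferon-induced gene of the oligoadenylate synthetase family, had differences of −0.97 in thymus (SE 0.30, adjusted p = 0.0279) and −1.18 in spleen (SE 0.30, adjusted p = 0.00615). Cox6a1, a subunit of cytochrome c oxidase and the gene before Pxn, had 0.82 in thymus (SE 0.17, adjusted p = 0.00254) and 1.04 in spleen (SE 0.17, adjusted p = 1.60e-04). Coq5, an enzyme of coenzyme Q synthesis, had 0.66 in thymus (SE 0.16, adjusted p = 0.0055) and 0.54 in spleen (SE 0.16, adjusted p = 0.0126). Dynll1, a dynein light chain, had 0.59 in thymus (SE 0.21, adjusted p = 0.0469) and 0.60 in spleen (SE 0.21, adjusted p = 0.0351). Rplp0, a ribosomal protein gene with near-identical copies in the genome, lies after Pxn and had −0.51 in thymus (SE 0.16, adjusted p = 0.0311) and −0.46 in spleen (SE 0.16, adjusted p = 0.0371). Oasl2 and Rplp0 fell in both tissues, and Cox6a1, Coq5 and Dynll1 rose in both.

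**Figure D4:**
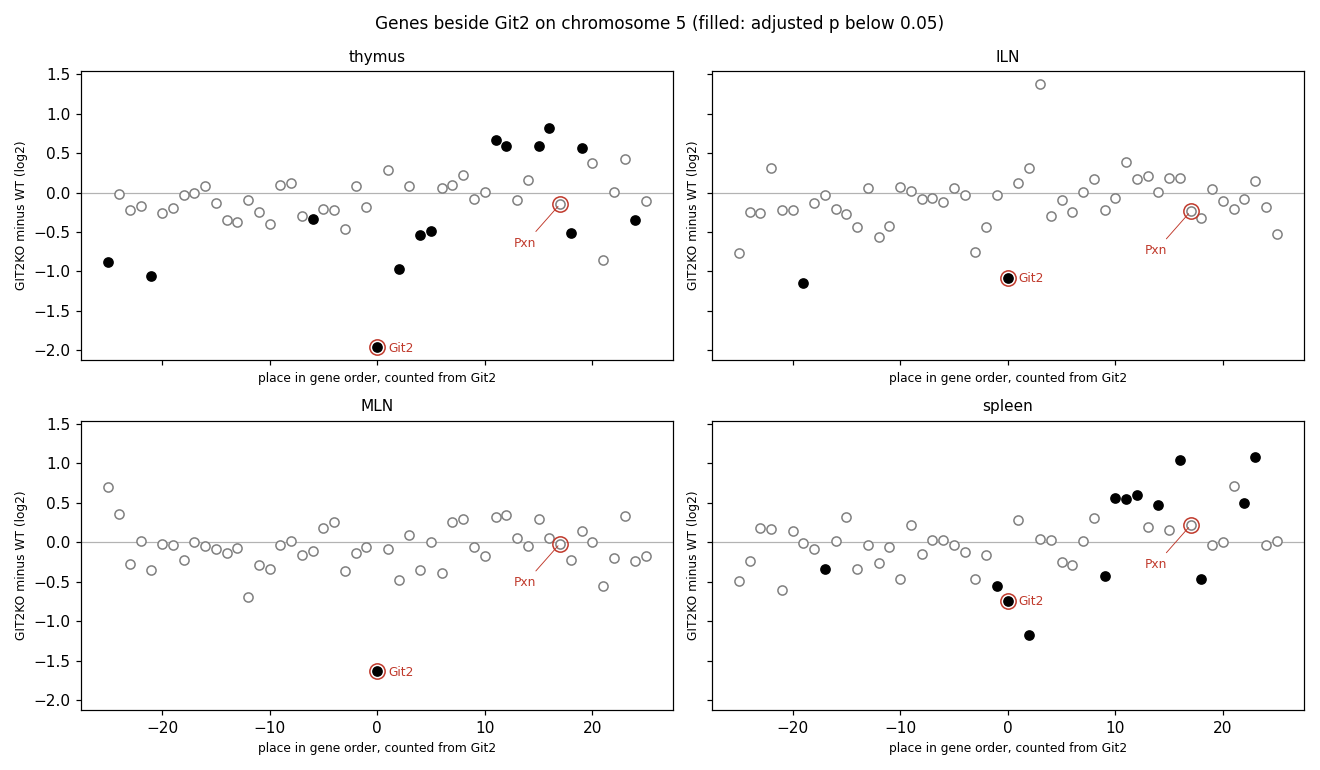
GIT2KO minus WT difference (log2, vertical axes) of Git2-a and of the 25 genes with a tested probe on each side of it on chromosome 5, by place in the gene order (horizontal axes), for thymus, ILN, MLN and spleen, filled where adjusted p was below 0.05. In MLN, Git2 is the only filled point, while in thymus and spleen 13 and 12 of its 50 neighbours are filled in both directions.

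Beyond the 8 genes, 6 lists of genes that act with the GIT, PIX and PAK proteins were counted, with 89 of 120 listed genes tested on their brightest probe. In thymus 0 rose and 10 fell, in ILN 0 rose and 0 fell, in MLN 0 rose and 2 fell, and in spleen 10 rose and 13 fell. These passing genes make up 11.2% in thymus, 2.25% in MLN and 25.8% in spleen, where 17.4%, 2.20% and 25.2% of all tested probes passed, and 2.55% in ILN, so the counts lie below or near the share of all probes. In ILN, 3 had an unadjusted p below 0.05 in limma upward and 5 downward. The median difference of the listed genes was −0.09 in thymus and −0.01 in spleen, beside −0.02 and −0.00 over all tested probes.

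Iqgap1, a scaffold that binds Rac1 and Cdc42, fell in 3 of the 4 tissues, with −0.63 (SE 0.10, adjusted p = 1.79e-04) in thymus, −0.49 (SE 0.10, adjusted p = 0.005) in MLN and −0.42 (SE 0.10, adjusted p = 0.00355) in spleen. It belongs to a list of PAK effectors and other binders of Rac1 and Cdc42, with 13 tested genes. Of these, 1 fell in thymus and 1 in MLN, in both Iqgap1 itself, while 3 fell and 1 rose in spleen. That is 1 of 13 (7.69%) in thymus and in MLN and 30.8% in spleen, beside 17.4%, 2.20% and 25.2% of all tested probes. The riser was Mylk, myosin light chain kinase, with 1.03 (SE 0.21, adjusted p = 0.00114), and the other fallers were Limk2, a cofilin kinase, with −0.55 (SE 0.16, adjusted p = 0.0136), and Map2k1, a kinase of the ERK cascade, with −1.05 (SE 0.28, adjusted p = 0.00803). Of 17 exchange factors and GTPase-activating proteins, 3 fell in thymus and 6 in spleen, and 0 rose in either, or 17.6% and 35.3%, beside 17.4% and 25.2% of all tested probes. Among them Arhgef1, an exchange factor of lymphocytes, had −0.55 (SE 0.14, adjusted p = 0.0101) in thymus and −0.59 (SE 0.14, adjusted p = 0.00396) in spleen, and Prex1, a Rac exchange factor, had −0.63 (SE 0.21, adjusted p = 0.0419) in thymus. Def6, an exchange factor of T cells, had −0.51 (SE 0.17, adjusted p = 0.0259) in spleen, and Arhgap15, a Rac GTPase-activating protein, had −0.55 (SE 0.20, adjusted p = 0.0495) there.

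Of 17 genes of the paxillin family and focal adhesions, 1 fell in thymus, 5 rose in spleen and 1 fell there, or 5.88% in thymus and 35.3% in spleen, beside 17.4% and 25.2% of all tested probes. Talin, encoded by Tln1, which links integrins to actin, was not well above background in any WT spleen and was detected in 2 of 3 GIT2KO spleens, at least 1.3-fold higher in GIT2KO (adjusted p = 0.0055). Such a bound sets the mean of the brighter group against the lowest signal detected on each array of the dimmer one. Ilk, the integrin-linked kinase, had 0.86 (SE 0.14, adjusted p = 1.94e-04). Crkl, an adaptor that binds paxillin, had 0.67 (SE 0.18, adjusted p = 0.0101), and Itgb1, the integrin beta chain, had 0.84 (SE 0.29, adjusted p = 0.0339) in spleen. Nck2, an adaptor that binds PAK, had −0.40 (SE 0.11, adjusted p = 0.0132) in spleen, and Ptk2b, the kinase PYK2, had −0.54 (SE 0.17, adjusted p = 0.0305) in thymus. Of 23 ARF GTPases and ARF GTPase-activating proteins, the family to which Git2 and Git1 belong by activity, 3 fell in thymus, 1 in MLN and 2 in spleen, and 2 rose in spleen, or 13% in thymus, 4.35% in MLN and 17.4% in spleen, beside 17.4%, 2.20% and 25.2% of all tested probes. Arap1 had −1.13 (SE 0.26, adjusted p = 0.00536) in thymus and −1.09 (SE 0.26, adjusted p = 0.00426) in spleen, and Arfgap1, which acts on ARF1 at the Golgi, had −0.89 (SE 0.18, adjusted p = 0.00237) and −0.96 (SE 0.18, adjusted p = 5.97e-04) in the same tissues. Adap2 had −1.10 (SE 0.24, adjusted p = 0.00948) in MLN, and Arf5 had 0.83 (SE 0.17, adjusted p = 9.19e-04) in spleen. Agfg2 had 1.02 (SE 0.16, adjusted p = 9.39e-05) in spleen. Of 10 receptor kinases, arrestins and other binding partners, 2 fell in thymus, and 1 rose and 1 fell in spleen, or 20.0% in each, beside 17.4% and 25.2% of all tested probes. With 10 to 23 genes in a list, these shares are a description, and nothing particular to a list is read from them. Scrib, a polarity scaffold that binds PIX, had −0.59 (SE 0.18, adjusted p = 0.0284) in thymus. Grk4, a receptor kinase, had −0.63 (SE 0.21, adjusted p = 0.0405) in thymus, detected in 2 of 3 GIT2KO and 3 of 3 WT samples. In spleen Grk4 was not well above background in any GIT2KO sample and was at least 1.81-fold lower in GIT2KO than in WT (adjusted p = 3.41e-04). Grk6, a receptor kinase of blood cells, had 0.52 (SE 0.17, adjusted p = 0.0323) in spleen.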

How the data were processed

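RNA of 27 samples was measured on Illumina MouseRef-8 arrays, 31 arrays in all since 4 samples have a repeat array. Intensity values are the non-normalized signals as deposited. The detection p-value of each signal was computed by the authors in GenomeStudio 2011.1 and is deposited beside it. The deposited score values are log10 signals that the authors z-transformed within each array, and recomputing them gave the same values within 5.00e-10. With limma 3.58.1 (R 4.3.3), neqc estimated background through the detection p-values and was run with offset 16, followed by quantile normalization and log2. Repeat arrays were averaged. Probes detected (p below 0.05) in at least 3 samples were kept. A single fit held 9 groups of 3, with a trend in eBayes, and the animal means were fitted for 6 animals. Symbols came from the array annotation, 1719 probes having none, and the leading probe of a gene is the one with the highest mean. The scripts were tested on simulated data.

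Named are all probes of the 8 genes, and up to 3 genes per list and direction among those passing in a tissue. Also named are neighbours of Git2 passing in at least 2 tissues, the 5 genes most like Git2-a and the 5 most like Git1-a. The genes and lists were chosen with earlier results of these data known. In each GIT2KO against WT comparison of 1 tissue, and in the animal means, mice are the replicates. Tests of tissue dependence, of WT tissues and of PTL compare tissues that share animals. The single fit behind these tests also gave the comparisons of 1 tissue. It treats the 27 samples of 7 animals as independent, with no term for the animal. Its spread is pooled over all groups, so each SE also draws on other tissues of the same mice. With only the groups compared in the fit, 21.1% of all tested probes passed in thymus, 8.65% in ILN, 0.658% in MLN and 7.82% in spleen. The main fit gave 17.4%, 2.55%, 2.20% and 25.2%, and animal as a random block 17.3%, 2.59%, 2.23% and 25.3%. With 3 mice per group the precision is limited. Rag1, Glycam1 and Sgsm1 were named outside this rule, and 1 of the 6 lists is not reported here on its own. Alternatives covered background, the deposited z values, the filter, samples, blocks, repeat arrays, an adipocyte covariate, robust estimation and the methods' t-test.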

Additional observations from a re-analysis of the deposited data

Results flagged for a closer look

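The GIT2KO effect differed between thymus, ILN, MLN and spleen for 3 of the 10 probes, by the limma F test over the 4 contrasts. For Git2-b (ILMN_1251129) the adjusted p was 0.00109, with differences of −3.48, −1.998, −2.14 and −2.10 in these tissues. For Git2-c (ILMN_3136809) it was 0.0151, with −3.64, −2.08, −2.31 and −2.27. Both probes had their lowest GIT2KO mean and their highest WT mean in thymus. For Arhgef6-b (ILMN_2751345) it was 0.00889, with −0.53, 0.27, 0.97 and −0.27, on a probe detected in 20 of 27 samples. With the adipocyte markers as a covariate Git2-c no longer passed (adjusted p = 0.0649), where 6.62% of all tested probes passed, in place of 8.23%.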

How the results depend on the processing

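Of 34 passing pairs of probe and comparison, 18 passed under all alternatives run for them and none changed sign, and of 56 pairs that did not pass, 10 passed and 18 changed sign under at least 1. Counts of passing probes, out of 10, stayed within 1.5 times the value given except as follows. In spleen 2 passed, in place of 5, when only the groups compared were fitted, and 3 by the methods' t-test. Of all tested probes 7.82% and 6.79% passed in spleen under these settings, in place of 25.2%. In the animal means 0 passed, in place of 4, with the adipocyte covariate, whose mean was 7.68–8.14 in the GIT2KO animals and 6.50–6.97 in the WT animals, and the median SE over probes was 0.345 with it and 0.108 without. Of all 15053 tested probes 6 passed with this covariate, in place of 3167. Against GIT2KO thymus 0 passed in PTL, in place of 3, by the methods' t-test, where 9.91% of all tested probes passed, in place of 40.8%. Against the nodes 0 passed, in place of 1, with the adipocyte covariate, and 2 with the deposited z values, with only the groups compared, with animal as a random block and with the repeat array. Of all tested probes 1.90% passed there with the covariate and 3.76–4.88% under the other settings named, in place of 4.74%. Leaving out each sample in turn gave 3 to 5 in thymus, 2 to 3 in ILN, 3 to 4 in MLN, 3 to 5 in spleen, 3 to 5 in the animal means, 3 to 5 for tissue dependence, 2 to 3 and 1 to 1 for PTL against thymus and nodes, and 6 to 8 among WT tissues. The cause was not tested.

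GIT2KO and WT samples share only a number. Same-numbered samples correlated, after removal of group means, at 0.05 to 0.18 in thymus, where 3 of 3 correlated best with their own number, and 1 of 3 did in each other tissue. With the replicate block 4 probes passed in thymus, 3 in ILN, 4 in MLN, 5 in spleen, 3 in the animal means, where Arhgef6-a was lost (adjusted p = 0.0604), 3 for tissue dependence, and 3 and 1 for PTL against thymus and nodes. Of all tested probes 18.3%, 2.79%, 2.33%, 25.8%, 19.7%, 8.90%, 41.1% and 4.80% passed with that block, in the same order. By the methods' t-test with its threshold, 3, 3, 4 and 3 probes passed in thymus, ILN, MLN and spleen, and 3, 1, 0 and 0 after Benjamini-Hochberg. Of all tested probes 8.97%, 6.54%, 4.31% and 6.79% passed at that threshold. After Benjamini-Hochberg 437, 46, 3 and 1 of the 15053 did. Signal over background limits the dim probes most, since Pxn-b was detected in 7 and Arhgef6-b in 20 of 27 samples.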
